A study of Mus musculus with 20 samples.

Results

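The response to benzo[a]pyrene (B[a]P) was examined in Hepa-1 cells that had been grown with hexavalent chromium, Cr(VI), up to passage 20. Hepa-1 is a mouse hepatoma cell line. The comparison rests on 4 of the 20 RNA-seq libraries of the series, 2 from cells given B[a]P for 8 hours and 2 from cells given the solvent DMSO for 8 hours, and they were chosen by their labels. All 4 came from cells kept with Cr(VI) for 20 passages, so the chromium exposure was common to both arms. As labelled, Cr(VI) was at 0.5 mM and B[a]P at 5 mM. The title of the series speaks of low concentrations, so these units may not be those intended. For reference, 4 libraries of control-grown cells of passage 20 (never given Cr(VI), DMSO or B[a]P for 8 hours) and 4 libraries of cells kept with Cr(VI) to passage 25 (DMSO or B[a]P for 8 hours) were compared in the same way. The passage is that of the passage label, and the titles of the latter libraries carry another number, 27. All cells were of this single line, grown in α-MEM with fetal bovine serum, and total RNA was extracted on RNeasy columns. The labels do not say whether the duplicates came from separate cultures, so the tests take in the spread between libraries, which may be technical, and nothing more.

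B[a]P is a polycyclic aromatic hydrocarbon formed in combustion. It binds the aryl hydrocarbon receptor (AHR), which leaves its HSP90 chaperone complex, enters the nucleus, pairs with ARNT and binds DNA elements with the core GCGTG in front of genes of xenobiotic metabolism such as Cyp1a1. The cytochromes P450 made in this way oxidise B[a]P to quinones and to epoxides that bind DNA, and such products are known to call on NRF2, the regulator of antioxidant genes, and on p53, the regulator of the DNA damage response. Cr(VI) is taken up by cells and reduced there to forms that bind DNA, and it is known to interfere with the induction of AHR target genes.

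The 4 libraries held 24896093 to 31534041 counts, and levels are given as CPM, the counts of a gene per 1000000 counts of the library after TMM scaling. One DMSO library stood apart from the other. Between DMSO replicate 1 and DMSO replicate 2, 32.2% of the 14343 genes tested differed by over 2-fold, against 2.32% between both B[a]P libraries and 2.45% and 1.58% between the duplicates of the control-grown DMSO and B[a]P groups. DMSO replicate 1 differed from the control-grown DMSO libraries in 6.46% and 5.61% of genes, and DMSO replicate 2 in 35.1% and 34.4%. The 100 most counted genes took 16.7% of the counts in DMSO replicate 1 and 25.4% in DMSO replicate 2, with 20.3% and 22.1% in the B[a]P libraries between them. The gap is plain in single genes: Nrip1, a nuclear receptor corepressor gene, had 71.8 CPM in DMSO replicate 1 and 2.82 in DMSO replicate 2, and Atp5e, an ATP synthase subunit gene, had 88.7 and 564. Their B[a]P values of 11.6 and 4.71 CPM and of 150.2 and 247 lay between the DMSO libraries.

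The difference between the DMSO libraries moved with transcript length. Genes whose longest annotated transcript was at most 1 kb (n = 697) had a median log2 difference of 1.30, replicate 2 minus replicate 1, and genes with transcripts over 8 kb (n = 724) had -0.97. The B[a]P libraries showed the same order to a smaller extent, with 0.39 and -0.28. The mean of the B[a]P libraries lay above DMSO replicate 1 for short transcripts (0.64) and below it for long ones (-0.88), while against DMSO replicate 2 the values were -0.68 and 0.15. The labels give no RNA quality values, and its part in these differences was not tested. Values against each DMSO library are given below wherever they disagree.

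**Figure D1:**
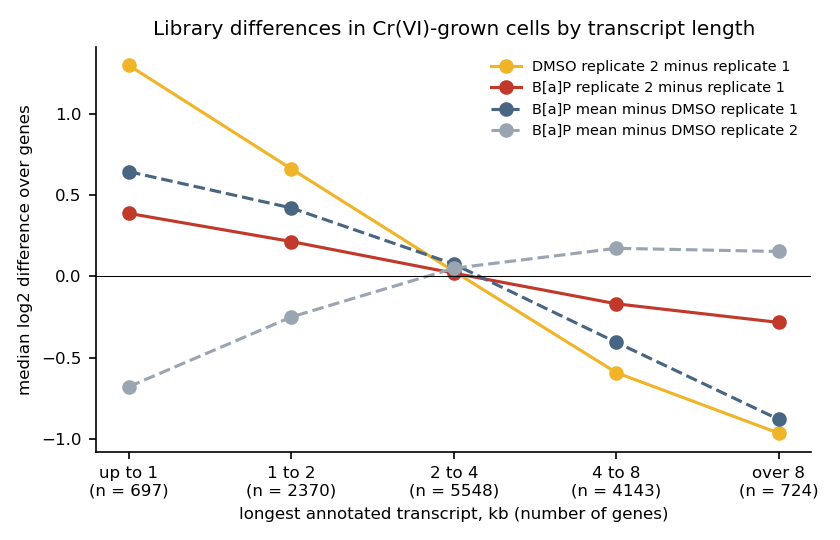
Median log2 difference between libraries of Cr(VI)-grown cells (y axis) for genes grouped by the length of their longest annotated transcript in kb (x axis, number of genes below each group), with solid lines between replicates and dashed lines between the B[a]P mean and each DMSO library. The replicate difference in the DMSO group runs from 1.30 to -0.97, and the dashed lines cross, so that short transcripts lie above DMSO replicate 1 and below DMSO replicate 2.

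Hepatocyte markers were present. The 13 hepatocyte or hepatoma markers summed to 4133 CPM in DMSO replicate 1, 6899 in DMSO replicate 2 and 5400.1 and 5474 in the B[a]P libraries. The 8 macrophage markers summed to 35.9 and 48.7 CPM with DMSO and 58.1 and 61.2 with B[a]P. Of these C1qa, C1qb and Clec4f were at 0 in all 4 libraries. The 4 tested had a median log2 difference of 0.40 and none passed the threshold in either fit. In 2 of them both B[a]P libraries lay above both DMSO libraries (17.1% of all genes did). The 6 endothelial markers summed to 1.89 to 3.52 CPM, with Cdh5 at 0 throughout. The 6 cholangiocyte markers summed to 1223 and 2021 CPM with DMSO and 1240.5 and 1366 with B[a]P, mostly from the keratin gene Krt7. The part of other cell types in the results was not tested. Apoa1, a liver apolipoprotein gene, had no count in DMSO replicate 2. Stellate cell markers, some of which hepatoma cells also express, summed to 825 and 416 CPM with DMSO and 794 and 619 with B[a]P.

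B[a]P raised 3 genes and lowered 3 genes of the 14343 tested (edgeR's quasi-likelihood test, Benjamini-Hochberg adjusted p under 0.05). Each direction is 0.0209% of the genes. The genes that rose were Cyp1a1, Nqo1 and Tlcd2, and those that fell were Hs3st1, Rasgef1b and Nuak1. An unadjusted p under 0.05 was reached by 701 genes. The test used the spread over all 20 libraries (common dispersion 0.228). Besides those described above, these were control-grown cells of passage 25 and passage 25 cells labelled with Cr(VI) for 20 passages, each given DMSO or B[a]P. When the 8 libraries of passage 20 alone set the spread (0.0640), 195 genes passed. Of these 103 were higher (0.718%) and 92 were lower (0.641%), and they included all of the 6 but Nuak1, whose adjusted p was then 0.0523 by the same edgeR test. Where 2 adjusted p-values follow a gene, the first is from the fit of all 20 libraries and the second from that of the passage 20 libraries only.

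Counts in this comparison depended on which DMSO library was used. In 6159 genes (42.9%) both B[a]P libraries lay between the DMSO libraries, and 229 genes were over 2-fold above one DMSO library and over 2-fold below the other. Both B[a]P libraries lay above both DMSO libraries in 2458 genes (17.1%) and below both in 2322 genes (16.2%). Without DMSO replicate 2 the test called 13 genes, the 6 among them, and without DMSO replicate 1 it called 0, with 832 genes at an unadjusted p under 0.05. In both cases the lone DMSO library is assumed to vary like the other groups. With passage 20 libraries only, a choice made after seeing the data, 6794 genes passed against DMSO replicate 1 alone and 5561 against DMSO replicate 2 alone. Of the genes that passed against both, 653 were higher and 658 lower each time, and 1813 changed direction.

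**Figure D2:**
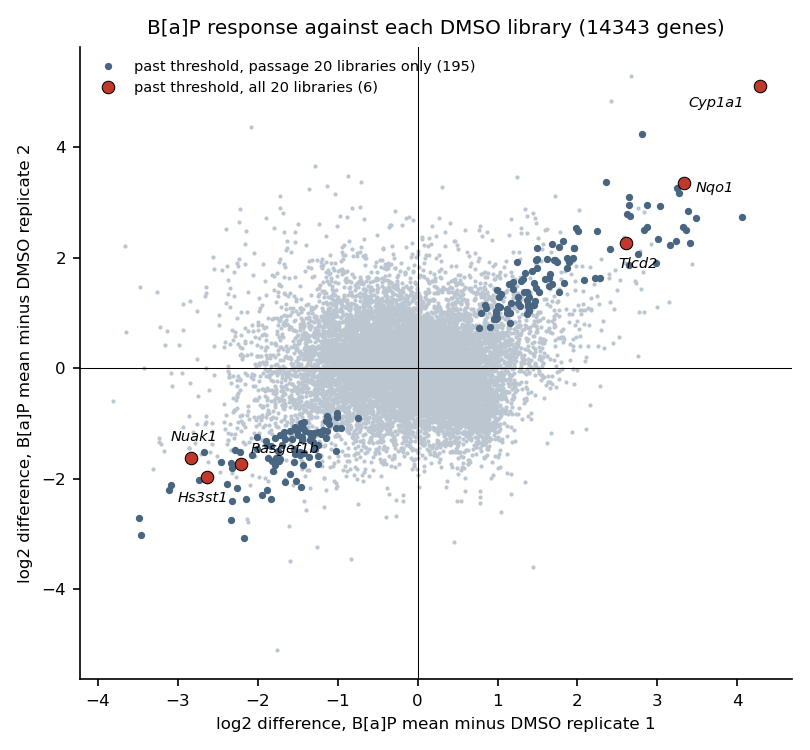
Log2 difference between the mean of the B[a]P libraries and DMSO replicate 1 (x axis) and DMSO replicate 2 (y axis) for 14343 genes, with the 6 genes past the threshold over all 20 libraries in red and the 195 past it with passage 20 libraries only in blue. Both axes share the B[a]P libraries, and a test over both DMSO libraries favours genes in which these are alike. The 6 genes have the same sign on both axes, from close values for Nqo1 (3.33 and 3.34) to distant ones for Nuak1 (-2.83 and -1.62).

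The genes that rose included the P450 and the reductase best known from B[a]P metabolism. Cyp1a1 (Entrez ID 13076, chromosome 9, 57687928 to 57703824 on GRCm38.p6), the cytochrome P450 that oxidises B[a]P, stood at 62.4 CPM in DMSO replicate 1 and 35.4 in DMSO replicate 2, and at 1234 and 1195 CPM in the B[a]P libraries. The DMSO libraries differed from each other, but both B[a]P libraries were far above them. Cyp1a1 rose 24.8-fold (log2 4.63 ± 0.49 SE, adjusted p = 0.00220), with group means of 48.9 ± 19.1 and 1215 ± 27.7 CPM (SD, n = 2). Nqo1 (ID 18104, chromosome 8, 107388225 to 107403205), which encodes a quinone reductase, read 21.2 and 21.0 CPM in the DMSO libraries and 217 and 210.3 with B[a]P. The duplicates lay close together in both groups, and Nqo1 rose 10.1-fold (log2 3.34 ± 0.33, adjusted p = 0.00217).

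Tlcd2 (ID 380712, chromosome 11, 75468024 to 75470899), which encodes a membrane protein with a TLC domain, had 3.79 and 4.81 CPM with DMSO and 23.2 and 23.9 with B[a]P. It rose 5.47-fold (log2 2.45 ± 0.32, adjusted p = 0.0117), and the groups did not overlap. Cyp1a1, Nqo1 and Tlcd2 passed without DMSO replicate 2 and did not pass without DMSO replicate 1. In the latter case the log2 differences were 5.10, 3.35 and 2.29, in the same direction.

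**Figure D3:**
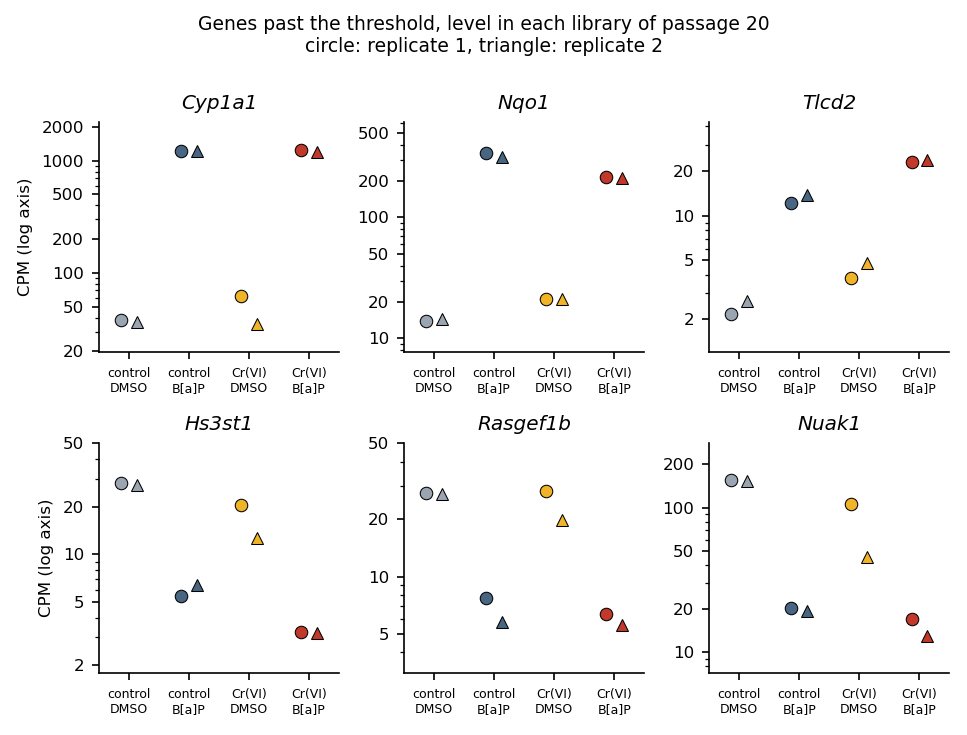
Level in CPM (log y axis) of the 6 genes past the threshold in each passage 20 library, by growth and treatment (x axis), with circles for replicate 1 and triangles for replicate 2. In Cr(VI)-grown cells both B[a]P libraries lie above both DMSO libraries for Cyp1a1, Nqo1 and Tlcd2 and below both for Hs3st1, Rasgef1b and Nuak1.

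The promoter windows of the 3 genes that rose are shown so that the presence or absence of the AHR core can be read, beside that of Rasgef1b, which fell and held the most cores of the 6 genes. Each is the RefSeq window from 250 bases before to 50 bases after the annotated start on GRCm38.p6, with GCGTG and its complement CACGC in capitals. Cyp1a1 (chr9:57697363-57697662, plus strand, a start inside the annotated span of the gene) held 1 core, 54 bases before the start. Nqo1 (chr8:107403156-107403455, minus strand) held 0. Tlcd2 (chr11:75467800-75468099, plus strand) held 2, and Rasgef1b (chr5:99252878-99253177, minus strand) held 4. Of the other genes that fell, Nuak1 held 1 and Hs3st1 held 0.
Cyp1a1: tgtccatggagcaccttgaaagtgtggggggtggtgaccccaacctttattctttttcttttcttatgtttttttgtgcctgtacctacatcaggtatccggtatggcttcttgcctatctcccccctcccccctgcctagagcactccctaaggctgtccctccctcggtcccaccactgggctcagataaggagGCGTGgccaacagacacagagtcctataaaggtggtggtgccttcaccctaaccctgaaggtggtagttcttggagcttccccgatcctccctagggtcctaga
Nqo1: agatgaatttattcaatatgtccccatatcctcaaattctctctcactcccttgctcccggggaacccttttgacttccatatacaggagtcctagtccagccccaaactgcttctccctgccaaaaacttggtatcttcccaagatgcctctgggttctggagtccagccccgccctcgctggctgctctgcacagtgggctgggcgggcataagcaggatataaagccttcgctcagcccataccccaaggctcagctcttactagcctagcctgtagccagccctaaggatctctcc
Tlcd2: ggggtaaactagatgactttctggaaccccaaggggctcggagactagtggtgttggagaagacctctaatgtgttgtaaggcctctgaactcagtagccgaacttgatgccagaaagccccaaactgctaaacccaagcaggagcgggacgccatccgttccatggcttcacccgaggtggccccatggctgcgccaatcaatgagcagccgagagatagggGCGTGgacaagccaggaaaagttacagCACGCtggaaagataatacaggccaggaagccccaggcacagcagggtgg
Rasgef1b: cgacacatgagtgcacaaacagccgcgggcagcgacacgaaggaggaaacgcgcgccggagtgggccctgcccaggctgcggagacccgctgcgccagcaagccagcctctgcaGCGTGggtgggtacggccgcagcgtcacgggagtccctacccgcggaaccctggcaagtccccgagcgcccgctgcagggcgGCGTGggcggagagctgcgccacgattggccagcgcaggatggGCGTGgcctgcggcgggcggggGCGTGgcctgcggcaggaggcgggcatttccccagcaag
A core on either strand was present in 32.4% of all 32851 RefSeq promoter windows, and at least 1 was present in 47.7% of the 14084 windows of genes tested. Among genes that passed with passage 20 libraries only, the share was 54.9% of 102 windows for the higher genes and 46.2% of 93 windows for the lower ones. These are matches of 5 letters, not measured binding sites.

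The list of AHR target genes held 18 genes, of which 17 passed the count filter (the AHR repressor gene Ahrr did not). Its median log2 difference was 1.81, with 1.43 against DMSO replicate 1 and 2.18 against DMSO replicate 2, while the median over all genes was -0.08. Cyp1a1 and Nqo1 rose. Of the 17, 14 had both B[a]P libraries above both DMSO libraries and 1 had both below (17.1% and 16.2% of all genes). With passage 20 libraries only, 8 passed, all higher (0.718% of all genes were). Cyp1a2, the neighbouring P450 gene of Cyp1a1, read 19.001 and 15.2 CPM with DMSO and 58.1 and 45.5 with B[a]P (log2 1.60 ± 0.34, adjusted p = 0.148, and 0.0217 with passage 20 libraries only). Cyp2s1, another AHR-regulated P450 gene, read 10.5 and 9.79 CPM against 69.9 and 63.2 (log2 2.72 ± 0.81, adjusted p = 0.466 and 0.00408). Its DMSO libraries lay close together, and its B[a]P levels were about as far above either.

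Aldh3a1, an aldehyde dehydrogenase gene, had 28.2 and 53.8 CPM with DMSO and 243 and 263 with B[a]P (log2 2.63 ± 0.76, adjusted p = 0.418 and 0.0208). Xdh, which encodes xanthine dehydrogenase, had 39.6 and 24.6 CPM against 128 and 97.9 (log2 1.81 ± 0.40, adjusted p = 0.161 and 0.0355). The glutathione transferase gene Gsta1 went from 0.265 and 0.498 CPM to 3.74 and 3.51, and the selenium-binding protein gene Selenbp1 from 0.345 and 0.954 to 6.76 and 6.76. Both have close paralogs with which reads may be shared, Gsta1 with Gm3776 and Gm10639 and Selenbp1 with Selenbp2, so their counts are uncertain. Gm3776 read 0.239 and 0.373 CPM with DMSO and 2.99 and 3.21 with B[a]P, and Gm10639 read 0.265 and 0.290 against 2.47 and 2.82.

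Other AHR targets were higher without passing in either fit. Cyp1b1, the P450 gene that also oxidises B[a]P, had 9.20 and 3.11 CPM with DMSO and 25.6 and 21.5 with B[a]P (log2 1.93 ± 0.93, adjusted p = 1). Tiparp, a mono-ADP-ribosyltransferase that represses AHR, had 24.2 and 10.95 CPM against 73.2 and 62.7. In both genes the groups were apart, and the log2 difference was larger against DMSO replicate 2 (2.89 and 2.62) than against DMSO replicate 1 (1.35 and 1.48). Ugt1a6a, a glucuronosyltransferase gene that shares exons with Ugt1a6b and Ugt1a7c, had 48.0 and 50.2 CPM against 80.4 and 85.0.

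The receptor and its partners did not pass in either fit, and their values turned on the DMSO library. Ahr itself had 67.9 CPM in DMSO replicate 1 and 17.8 in DMSO replicate 2, and 18.5 and 13.8 with B[a]P. The B[a]P libraries were thus far below DMSO replicate 1 (log2 -2.08) and near DMSO replicate 2 (log2 -0.16), which overlapped them. In control-grown cells Ahr had 61.0 and 58.3 CPM with DMSO and 17.9 and 15.5 with B[a]P. The chaperone gene Hsp90ab1 read 2676 and 2892 CPM with DMSO and 3322 and 2998 with B[a]P (log2 0.18 ± 0.59). Over the 15 genes of the AHR complex and its coactivators the median was -0.65 against DMSO replicate 1 and 0.17 against DMSO replicate 2, and their median transcript length was 6.23 kb against 3.27 kb over all genes.

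Hs3st1 (ID 15476, chromosome 5, 39613935 to 39645592), which encodes a heparan sulfate sulfotransferase, had 20.4 and 12.8 CPM with DMSO and 3.23 and 3.21 with B[a]P. It fell 5.14-fold (log2 -2.36 ± 0.31, adjusted p = 0.0117). Rasgef1b (ID 320292, chromosome 5, 99217420 to 99252927), a guanine nucleotide exchange factor gene whose promoter is printed above, had 28.0 and 19.9 CPM against 6.39 and 5.58, and fell 3.998-fold (log2 -1.999 ± 0.29, adjusted p = 0.0371). Nuak1 (ID 77976, chromosome 10, 84370900 to 84440668), a kinase gene related to AMPK, had 106 and 45.5 CPM against 16.9 and 12.9. It fell 5.07-fold (log2 -2.34 ± 0.35, adjusted p = 0.0377). For each of these genes both B[a]P libraries lay below both DMSO libraries, and the distance was larger to DMSO replicate 1 than to DMSO replicate 2, most of all for Nuak1 (log2 -2.83 and -1.62). Without DMSO replicate 1 the adjusted p was 0.113 for Hs3st1, 0.203 for Rasgef1b and 0.182 for Nuak1, and without DMSO replicate 2 it was 0.00951, 0.0367 and 0.00475.

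Beyond the 6 genes, those with the widest gap between the groups are given as values. Ccno, a cyclin gene, had 0.848 and 0.913 CPM with DMSO and 7.93 and 9.61 with B[a]P (log2 3.31 ± 0.63, adjusted p = 0.102, and 0.00786 with passage 20 libraries only). Adh7, an alcohol dehydrogenase gene, had 23.4 and 8.67 CPM against 183 and 147 (adjusted p = 0.374 and 0.0305). Tnfaip2, a gene known for its induction by tumour necrosis factor, had 11.7 and 8.54 CPM against 79.2 and 68.3 (adjusted p = 0.0815 and 0.00981). These genes stood at several times the level of either DMSO library in both B[a]P libraries.

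Lower genes with wide gaps included kinase, transcription factor and matrix genes. Cdk6, a G1 cyclin-dependent kinase gene, had 11.4 and 7.38 CPM with DMSO and 1.75 and 1.802 with B[a]P (log2 -2.40 ± 0.39, adjusted p = 0.0571 and 0.0182). Foxp1, a forkhead factor gene, had 9.35 and 10.9 CPM against 2.03 and 2.102, and Nfia, a nuclear factor I gene, had 11.5 and 11.9 against 3.26 and 3.24. Maml2, a Notch coactivator gene, had 6.04 and 3.48 CPM against 0.446 and 0.510. The small GTPase gene Arl15 had 4.85 and 2.45 CPM against 0.515 and 0.510, and Fam222a had 43.1 and 40.5 against 9.68 and 8.32. Fbn2, the fibrillin 2 gene, had 3.42 and 1.78 CPM against 0.378 and 0.300, Kcnj8, a potassium channel subunit gene, had 11.1 and 13.8 against 3.12 and 2.76, and 2210409E12Rik had 2.31 and 4.31 against 0.412 and 0.510. In each of these genes both B[a]P libraries lay below both DMSO libraries. Cdk6, Foxp1, Nfia, Maml2, Arl15, Fam222a and Fbn2 passed with passage 20 libraries only, and none of those named here passed over all 20 libraries.

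The lower genes spanned more of the genome. The median span was 97.2 kb for the 92 genes lower with passage 20 libraries only, 12.5 kb for the 103 higher ones and 20.6 kb over all genes tested. Genes spanning over 300 kb (n = 274) had a median log2 difference of -0.81, with -0.97 against DMSO replicate 1 and -0.29 against DMSO replicate 2. In control-grown cells the median was -1.48. The median difference between duplicates in these genes, replicate 2 minus replicate 1, was -0.02 with DMSO and -0.11 with B[a]P in control-grown cells. In Cr(VI)-grown cells it was -0.65 and -0.17. Transcript length moves with genomic span, and the part of the library difference in these values was not tested beyond giving each DMSO library.

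Of 28 NRF2 target genes tested, 17 had both B[a]P libraries above both DMSO libraries (17.1% of all genes did) and 0 had both below. Nqo1, which passed over all 20 libraries, was counted with the AHR targets and not in this list. Of the listed genes none passed over all 20 libraries. Hmox1, Srxn1 and Osgin1 passed with passage 20 libraries only, all higher (0.718% of all genes were). Hmox1 (ID 15368, chromosome 8, 75093618 to 75100593), which encodes heme oxygenase 1, had 66.5 and 63.0 CPM with DMSO and 470.3 and 500.4 with B[a]P (log2 2.91 ± 0.55, adjusted p = 0.102 and 0.00255). Srxn1, the sulfiredoxin gene, had 39.9 and 35.2 CPM against 138 and 129 (adjusted p = 0.180 and 0.0124). Osgin1, an oxidative stress induced gene, had 41.0 and 69.6 CPM against 261 and 251 (adjusted p = 0.205 and 0.0208). In these genes the DMSO libraries were close to each other relative to the distance to B[a]P.

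Gclm and Gclc, chosen after their values were seen, passed in neither fit. Gclm, the modifier subunit of glutamate-cysteine ligase, had 156 and 87.3 CPM with DMSO and 334 and 336 with B[a]P (log2 1.46 ± 0.45), and Gclc, its catalytic subunit, had 79.9 and 24.1 against 149 and 123.9 (log2 1.39 ± 0.65). Sqstm1, an autophagy receptor gene, had 924 and 1163 CPM against 1685 and 1859.8. Ftl1, the ferritin light chain gene, had 1592 CPM in DMSO replicate 1 and 4543 in DMSO replicate 2, with 3362 and 4033 under B[a]P, so its direction depended on the DMSO library (log2 1.21 and -0.30). Fth1, the heavy chain gene, had 1536 and 3106 CPM against 2842 and 3209.8. Over the NRF2 list the median log2 difference was 0.60, with 0.85 against DMSO replicate 1 and 0.56 against DMSO replicate 2.

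For the p53 target genes the level under DMSO is given first, as a description without a test. Over 31 genes the median in DMSO replicate 1 was 0.81 log2 units above the control-grown DMSO mean and in DMSO replicate 2 it was 0.45 above, while the B[a]P libraries of both growth histories differed by 0.01. The median log2 difference with B[a]P was 0.31 in Cr(VI)-grown cells (0.36 and 0.57 against each DMSO library) and 1.07 in control-grown cells. Both B[a]P libraries lay above both DMSO libraries for 15 of the 31 and below both for 1, against 17.1% and 16.2% of all genes. Cdkn1a, Btg2 and Plk3 passed with passage 20 libraries only, all higher (0.718% of all genes were).

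Cdkn1a (ID 12575, chromosome 17, 29090979 to 29100722), which encodes the cell cycle inhibitor p21, had 560.4 and 694 CPM with DMSO and 1399 and 1679 with B[a]P (log2 1.29 ± 0.54, adjusted p = 0.851 and 0.0329). Control-grown cells had 188 and 188 CPM with DMSO and 1066 and 1072 with B[a]P. The Cr(VI)-grown libraries were thus above the control-grown ones under both treatments, and the ratio was larger under DMSO. Btg2, an antiproliferative gene, had 23.6 and 16.9 CPM against 65.8 and 67.6 in Cr(VI)-grown cells (adjusted p = 0.117 and 0.0185), and Plk3, a polo-like kinase gene, had 24.9 and 35.0 against 96.6 and 115 (adjusted p = 0.341 and 0.0189).

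For some p53 targets the answer differed between the DMSO libraries. Trp53inp1, a p53-induced nuclear protein gene, had 184 CPM in DMSO replicate 1 and 37.8 in DMSO replicate 2, with 157 and 128 under B[a]P. Ccng1, the cyclin G1 gene, had 431 and 227 CPM with DMSO and 439.5 and 378 with B[a]P. In both genes DMSO replicate 1 overlapped the B[a]P range or passed it, and DMSO replicate 2 lay far below. For Pmaip1, which encodes the BH3-only protein NOXA, the values were 121.1 and 58.8 CPM with DMSO and 202 and 176 with B[a]P, and the groups did not overlap. Mdm2, the p53 ubiquitin ligase gene, had 373 and 269 CPM against 458 and 442, and Gdf15, a stress cytokine gene, had 242 and 453 against 668 and 939.

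**Figure D4:**
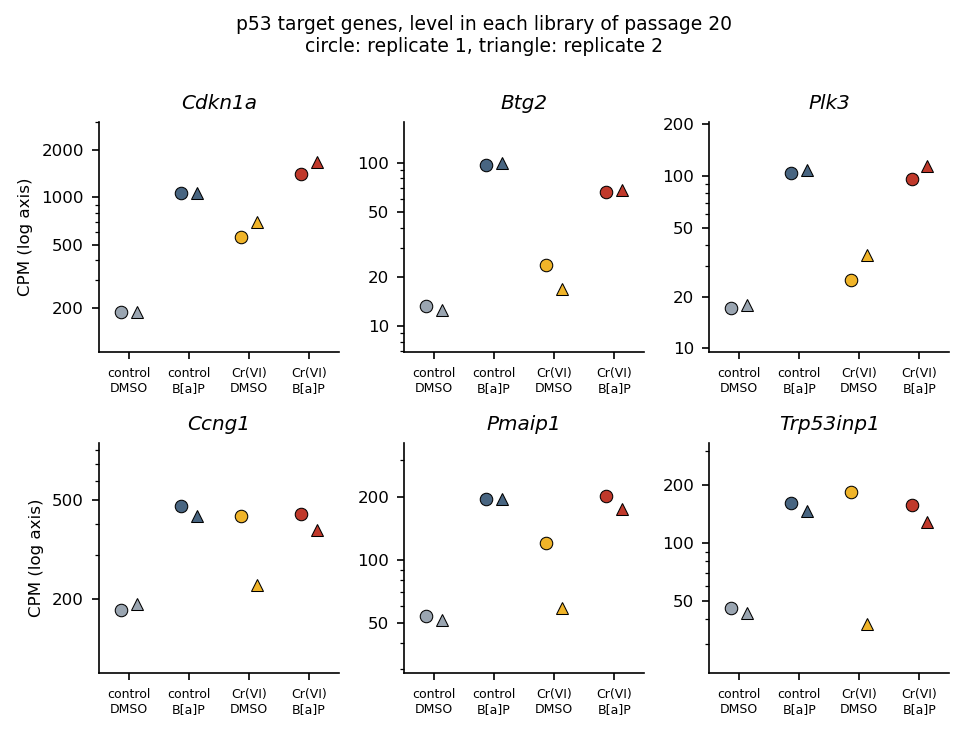
Level in CPM (log y axis) of 6 p53 target genes in each passage 20 library, by growth and treatment (x axis), with circles for replicate 1 and triangles for replicate 2. The DMSO libraries of Cr(VI)-grown cells lie above the control-grown DMSO libraries for Cdkn1a, Btg2, Plk3, Ccng1 and Pmaip1, and for Trp53inp1 they lie at 184 and 37.8 CPM, on both sides of the control-grown values.

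Genes of the immediate early response included 5 of 20 that passed with passage 20 libraries only, all higher, against 0.718% of all genes. Dusp1, a MAP kinase phosphatase gene, had 26.3 and 18.8 CPM with DMSO and 71.5 and 75.6 with B[a]P (log2 1.70 ± 0.27, adjusted p = 0.0522 and 0.0189). Zfp36, which encodes an mRNA-destabilising protein, had 21.1 and 17.0 CPM against 54.8 and 65.2. The AP-1 genes Fosl1 and Jun had 96.8 and 104 CPM against 268 and 242, and 19.3 and 12.03 against 50.02 and 42.2. Maff, a small MAF factor gene, had 41.1 and 33.2 CPM against 79.6 and 89.8. The list median was 0.28, with 8 genes above both DMSO libraries and 2 below both (17.1% and 16.2% of all genes).

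Stress genes under ATF4 and genes known from hypoxia gave 3 each that passed with passage 20 libraries only, of 21 and 20 tested and all higher (0.718% of all genes were). Both B[a]P libraries lay above both DMSO libraries in 7 and 6 genes of these lists and below both in 3 and 3, against 17.1% and 16.2% of all genes. Atf3, a stress-induced repressor gene, had 17.9 and 19.8 CPM with DMSO and 53.04 and 58.9 with B[a]P (log2 1.57 ± 0.33, adjusted p = 0.140 and 0.0182). Ppp1r15a, which encodes the phosphatase subunit GADD34, had 76.6 and 84.6 CPM against 212 and 229, and Ddit4, an inhibitor of mTORC1 signalling, had 82.7 and 71.7 against 136 and 153. Ndrg1 had 12.8 and 9.25 CPM against 49.2 and 54.9, the growth factor gene Vegfa had 39.4 and 26.5 against 129 and 123.4, and the glucose transporter gene Slc2a1 had 71.2 and 73.4 against 121.7 and 120.7. In all 6 genes both B[a]P libraries lay above both DMSO libraries. The list median was 0.22 for the ATF4 genes, with 0.40 against DMSO replicate 1 and 0.04 against DMSO replicate 2. For the hypoxia and glycolysis genes it was 0.19, with 0.47 against DMSO replicate 1 and -0.01 against DMSO replicate 2.

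Both B[a]P libraries lay below both DMSO libraries in 11 of 28 genes of G2 and mitosis (16.2% of all genes did) and above both in 0, and the median log2 difference was -0.39 (-0.56 against DMSO replicate 1 and -0.25 against DMSO replicate 2). Plk1, a mitotic kinase gene, had 105 and 116 CPM with DMSO and 62.4 and 62.4 with B[a]P (log2 -0.82 ± 0.70, adjusted p = 1, and 0.0476 with passage 20 libraries only). Top2a, the topoisomerase II gene, had 401 and 199 CPM against 232 and 167, and Cdk1, the mitotic kinase gene, had 196 and 272 against 177 and 217, and in both genes the groups overlapped. Genes of DNA replication had a median of -0.04 (-0.02 against DMSO replicate 1 and 0.01 against DMSO replicate 2). Among them Pcna, the sliding clamp gene, had 175 and 137 CPM against 229 and 248. Sox9, a transcription factor gene of progenitor and bile duct cells, had 124.1 and 86.1 CPM against 41.9 and 36.1 (log2 -1.43 ± 0.27, adjusted p = 0.102 and 0.0355).

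Some gene groups changed sign with the DMSO library. The 59 replication-dependent histone genes, whose transcripts are short (median 0.53 kb) and whose reads are shared among near-identical copies, had a median of 0.50 against DMSO replicate 1 and -0.98 against DMSO replicate 2. The 13 genes of DNA methyltransferases, deacetylases and acetyltransferases had -0.42 and 0.41, and the 8 genes of translesion synthesis had -0.73 and 0.23. Break and crosslink repair genes (24 tested) stayed negative at -0.54 and -0.11, and mismatch repair genes (8 tested) at -0.60 and -0.30. Both B[a]P libraries lay below both DMSO libraries in 11 and 5 genes of these 2 lists (16.2% of all genes did). They lay above both in 1 and 0 (17.1% of all genes). No gene of the lists in this paragraph passed in either fit.

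**Figure D5:**
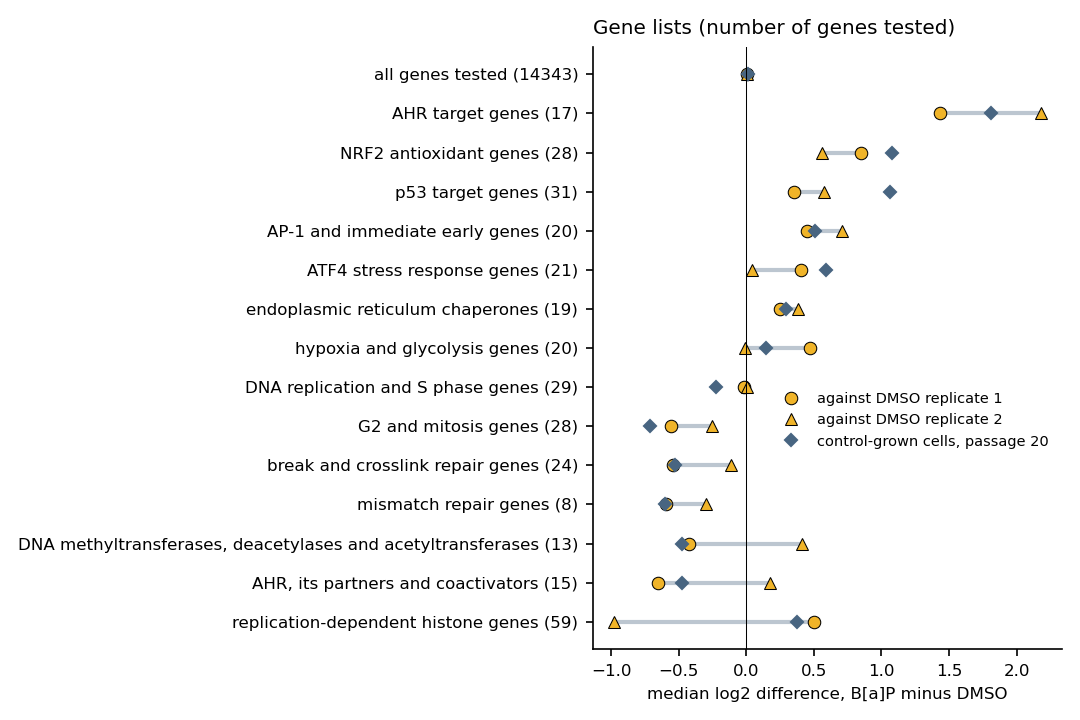
Median log2 difference between B[a]P and DMSO (x axis) over gene lists (y axis, number of genes tested in brackets), against DMSO replicate 1 (circles) and DMSO replicate 2 (triangles) of Cr(VI)-grown cells, and in control-grown cells of passage 20 (diamonds). AHR target genes lie at 1.43 and 2.18, and the histone genes run from 0.50 to -0.98 with the choice of DMSO library.

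The question whether growth with Cr(VI) altered the response was addressed by comparing it with that of control-grown cells of the same passage, which shares no library with it. In control-grown cells 74 genes rose (0.516%) and 103 fell (0.718%). All 74 were higher and all 103 lower in Cr(VI)-grown cells too, where 42.4% of all genes were higher. Of them 71 and 98 had groups that did not overlap (17.1% and 16.2% of all genes), and 3 and 3 passed the threshold (0.0209% of all genes each way). Their medians were 2.31 in control-grown and 1.45 in Cr(VI)-grown cells for the genes that rose, and -2.15 and -1.43 for those that fell. These genes were chosen because they passed the threshold in control-grown cells, which favours large values there. Smaller values elsewhere are therefore not read as a difference.

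Levels of these genes were also compared within each treatment. For the 74 genes the Cr(VI)-grown DMSO libraries had medians 0.78 and 0.94 log2 units above the control-grown DMSO mean, and the B[a]P means differed by 0.03. For the 103 genes the DMSO libraries lay at -0.56 and -1.12, and the B[a]P means differed by -0.01. The control-grown libraries enter both these differences and the choice of genes. Over all genes, 3.98% to 10.1% differed by over 2-fold between B[a]P libraries of Cr(VI)-grown and control-grown cells, and among DMSO libraries only pairs with the outlying replicate 2 exceeded that range. Among the 195 genes chosen in Cr(VI)-grown cells with passage 20 libraries only, the 103 higher had a median of 1.70 there and 1.99 in control-grown cells, with 74 of them larger in the latter, and the 92 lower had -1.58 and -1.89, with 64 larger in the latter. All 195 had the same direction in control-grown cells, where 51.1% of all genes were higher and 48.9% lower with B[a]P.

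Tested directly, the difference between the effects passed in no gene (0%), with 67 genes at an unadjusted p under 0.05. DESeq2 called 0 as well, with 74 genes at an unadjusted p under 0.05. Cyp1a1 had an effect of log2 5.03 ± 0.49 in control-grown cells, and the difference was -0.39 ± 0.59 (unadjusted p = 0.518). For Nqo1 the effect was 4.54 ± 0.35 in control-grown cells, with 13.8 and 14.4 CPM under DMSO and 344 and 314 under B[a]P, and the difference was -1.20 ± 0.43 (unadjusted p = 0.0146). The smallest p was that of Fhod3, a formin gene, which went from 35.8 and 33.4 CPM to 2.87 and 2.37 in control-grown cells and from 12.6 and 7.09 to 3.30 and 2.58 in Cr(VI)-grown cells (difference 1.98 ± 0.48, unadjusted p = 0.00122).

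Leaving out DMSO replicate 2 and taking the spread from passage 20 libraries only, a setting added after seeing the data, brought 12 genes past the threshold for the difference. The difference, Cr(VI)-grown minus control-grown, was negative for 11 of them, namely Nqo1, Hmox1, Mdm2, Polk, Inka2, Slc19a2, Btg2, Ccng1, Impact, Pmaip1 and Trp53inp1. It was positive for the keratin gene Krt83, which was lower with B[a]P in both. Trp53inp1 had the largest difference (-2.13 ± 0.18), followed by Inka2 (-1.55 ± 0.14) and Btg2 (-1.42 ± 0.13). With DMSO replicate 1 left out in its place, 5563 genes passed, so the count depends on which DMSO library is kept. Each of these settings has 1 DMSO library in the Cr(VI)-grown arm, which is assumed to vary like the other groups.

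At passage 25 the same treatment of Cr(VI)-grown cells called 8 genes (0.0558%), among them Cyp1a1 and Nqo1. Cyp1a1 had 32.9 and 27.04 CPM with DMSO and 930.2 and 2089 with B[a]P, and Nqo1 had 32.3 and 26.2 against 326 and 548. The levels under B[a]P were thus further apart between duplicates at passage 25 than at passage 20. The difference between the passages passed in no gene (0%), with 152 genes at an unadjusted p under 0.05 and 162 by DESeq2, which also called 0. Of the 103 genes higher and 92 genes lower with passage 20 libraries only, 102 and 81 had the same direction at passage 25, with medians of 1.498 and -0.90. Over all genes, 58.1% were higher and 41.8% lower with B[a]P at passage 25.

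Among the smallest p-values of the passage difference was that of Trib1. This pseudokinase gene had 129 and 91.3 CPM with DMSO and 52.3 and 48.5 with B[a]P at passage 20, and 124.3 and 123.7 against 171 and 208 at passage 25 (difference 1.74 ± 0.39, unadjusted p = 0.000673). Edn1, the endothelin gene, had 2.94 and 1.41 CPM against 0.412 and 0.721, and 4.67 and 5.36 against 8.16 and 12.5 at passage 25. For Cyp1a2 the effect was larger at passage 25, with 3.89 and 4.26 CPM under DMSO and 30.3 and 60.7 under B[a]P (difference 1.88 ± 0.48, unadjusted p = 0.00176). None of these differences passed after adjustment. As these are bulk libraries, fewer cells with a transcript and less transcript per cell cannot be told apart.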

How the data were processed

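RNA-seq gene counts were deposited by the authors as 1 table of raw counts per Entrez gene ID for 20 libraries. Per the submitters' processing notes, TopHat, bcl2fastq, CASAVA 1.8 and DESeq were used with the mm10 build. What counted the reads, on which annotation and whether by strand, is not given in the sources used here, so overlapping and antisense genes cannot be told apart. Of 23373 IDs, 23275 matched a RefSeq symbol, 98 did not, and 3210 had no count. Samples were grouped by their labels.

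Genes were filtered with filterByExpr, leaving 14343, scaled by TMM and tested with edgeR 4.0.16 (R 4.3.3) by the quasi-likelihood test over all 20 libraries (10 residual degrees of freedom), with Benjamini-Hochberg adjusted p under 0.05 as the threshold. Log2 levels of single libraries used a prior count of 2. Differences between effects were tested as contrasts of the same model. Each SE of a log2 difference was derived from the test, as the absolute log2 difference divided by the square root of the F statistic. The steps were tested on simulated data. The alternatives were other scalings, no filter, DESeq2 1.42.0, limma 3.58.1 (voom with library quality weights), a replicate block, fewer libraries and each replicate left out.

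Named genes were those past the threshold, then those with the widest gap between the groups, up to 12 a direction, the most expressed members of each gene list with any past the threshold, a few fixed AHR, NRF2 and p53 genes, and, for differences, the 6 with the smallest p. List members named because they passed with passage 20 libraries only, the genes of the added setting without DMSO replicate 2, and Gclm, Gclc, Hspa5, Syvn1, Fmn1 and Prkce fall outside this rule and were chosen after their values were seen. The comparison and the gene lists were chosen with earlier results of these data known.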

Additional observations from a re-analysis of the deposited data

How the results depend on the processing

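The number of genes past the threshold for B[a]P against DMSO, 6 over all 20 libraries, depended on the spread used. It was 8 with DESeq2's size factors, 11 with total counts, 2 with no filter, 155 by DESeq2, 59 by limma-voom with quality weights, 195 with passage 20 libraries only, and 0 with the 4 libraries alone (882 at an unadjusted p under 0.05). Leaving out 1 replicate gave 0 to 13 (0 without DMSO replicate 1, 13 without DMSO replicate 2, 2 without either B[a]P replicate). With the replicate block it was 437, and the common dispersion was 0.0453 in place of 0.228. Same-numbered libraries deviated together across genes with correlations of 0.81 to 0.92 at passage 25 and of 0 to 0.59 at passage 20, where the Cr(VI)-grown DMSO and B[a]P groups had 0.59. The replicate difference of that DMSO group also correlated, at 0.42 to 0.56, with those of the passage 25 groups. The labels name no shared culture or batch, so whether the numbers pair the passage 20 libraries is not settled. The alternatives added after seeing the data, passage 20 libraries only without DMSO replicate 1 or 2, gave 5561 and 6794 genes, and 5563 and 12 for the difference from control-grown cells. That difference and the passage difference were otherwise 0 under every setting run. Without DMSO replicate 1, and then with passage 20 libraries only as well, log2 differences turned to -0.30 and -0.31 for Ftl1, -0.0378 and -0.0533 for Fth1, 1.53 and 1.51 for Nrip1, and 0.00586 for Top2a in the first case. Without DMSO replicate 2 they turned to -0.0780 and -0.0564 for Ccng1, -0.37 and -0.35 for Trp53inp1, 0.0129 and 0.0339 for Cdk1, and 1.16 and 1.18 for Atp5e. Over the leave-one-out settings these genes ranged from -0.30 to 1.22 (Ftl1), -0.0378 to 0.98 (Fth1), -0.0780 to 0.85 (Ccng1), -0.37 to 1.91 (Trp53inp1), -1.004 to 0.00586 (Top2a), -0.46 to 0.0129 (Cdk1), -3.13 to 1.53 (Nrip1) and -1.50 to 1.16 (Atp5e). The causes were not tested. With 2 libraries a group, 1 of them apart, small differences were not detectable.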

Other observations

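Chaperone genes of the endoplasmic reticulum had both B[a]P libraries above both DMSO libraries in 10 of 19 genes and below both in 0 (17.1% and 16.2% of all genes), with a median log2 difference of 0.26 and no gene past the threshold in either fit. Hspa5, which encodes the chaperone BiP, had 475.8 and 353.8 CPM with DMSO and 747 and 691 with B[a]P, and Syvn1, an ubiquitin ligase gene of the same compartment, had 71.02 and 77.4 against 132.9 and 118.5. Cytosolic heat shock genes were above both DMSO libraries in 5 of 12 and below both in 0. Their median was 0.10, with 0.29 against DMSO replicate 1 and -0.02 against DMSO replicate 2. Interferon-response genes were above both in 7 of 17 and below both in 1, against the same 17.1% and 16.2%. Usp18, an ISG15 protease gene, had 51.2 and 57.4 CPM against 107 and 122.2 and passed with passage 20 libraries only (adjusted p = 0.0302 by edgeR's quasi-likelihood test).

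Genes of the formin and protein kinase C list had both B[a]P libraries below both DMSO libraries in 7 of 17 and above both in 1, against 16.2% and 17.1% of all genes, with a median of -0.80 against DMSO replicate 1 and -0.10 against DMSO replicate 2. Fmn1, a formin gene, had 9.35 and 5.10 CPM with DMSO and 2.78 and 2.61 with B[a]P, and the kinase gene Prkce had 11.98 and 4.77 against 2.33 and 2.07. Sterol synthesis genes were below both in 5 of 23 and above both in 0, a share of lower genes near the 16.2% of all genes. Of 7 very long genes of common fragile sites tested, 2 were below both DMSO libraries and 0 above both, against 16.2% and 17.1% of all genes. Their median was -0.78 against DMSO replicate 1 and -0.03 against DMSO replicate 2. Only Cdkal1, a tRNA-modifying enzyme gene, passed with passage 20 libraries only (adjusted p = 0.0405 by the same edgeR test), where 0.641% of all genes were lower. It had 3.95 and 3.57 CPM with DMSO against 1.34 and 1.47.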
